A study of Mus musculus with 10 samples.

Results

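Replication-dependent histone genes were followed in Ly6G+ cells of mice with myocardial infarction (MI), across heart and blood and with or without mesenchymal stromal cells (MSCs). A gene was taken as a member when its Ensembl identifier was protein-coding in the GRCm39 annotation and its symbol began with H2ac, H2bc, H3c or H4c and a digit, or was one of the linker histones H1-1 to H1-5, which the annotation writes H1f1 to H1f5. This rule found 61 of the 28185 genes in the deposited table, namely 5 H1, 15 H2A, 17 H2B, 11 H3 and 13 H4 genes. The annotation holds 67 such genes, and H2ac1, H2ac18, H2ac24, H2bc1, H2bc24 and H3c14 were not analysed here.

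These genes encode the bulk of the histones that package newly made DNA, with H2A, H2B, H3 and H4 forming the nucleosome core and H1 binding the linker DNA between cores. Their transcription rises in S phase, and their messenger RNAs are as a rule not polyadenylated but end after a short stem-loop that is bound by the stem-loop binding protein. The libraries were depleted of ribosomal RNA instead of selected for poly(A) tails, so both kinds of transcript could be read. Mature neutrophils are non-dividing cells, and some histone genes are known to give polyadenylated transcripts in cells that no longer divide.

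All mice were male C57Bl/6J animals, 12 to 16 weeks old, in which the left coronary artery was ligated, and cells were taken on day 3. MI (n = 3 libraries) denotes Ly6G+ cells from cardiac tissue without MSC treatment, and Blood (n = 2) the same cells from blood. MI + MSC (n = 3) and Blood + MSC (n = 2) came from mice that also received syngeneic bone marrow MSCs under the skin at 3 sites, 30 to 60 minutes after ligation. All 4 groups carried the infarct, so no library represents an uninjured mouse. The cells were enriched through Ly6G, which marks neutrophils in mice, with antibody-coated beads and not further sorted. The labels do not tie libraries to single mice, so the p-values measure the spread between these libraries.

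The values are read counts per gene divided by the size factor of the library, called normalized counts below. Reads on genes ranged from 148594 for MI 13 and 268860 for Blood 21 to 8602711 for Blood + MSC 24, and 1 read was worth 8.40 normalized counts for MI 13 and 7.07 for Blood 21. Over the tested genes, MI 13 correlated with the other MI libraries at r = 0.707 and 0.733, whereas those correlated with each other at 0.968, and the 2 Blood libraries correlated at 0.841. The list of 11 mature neutrophil genes summed to 2807 to 16420 normalized counts in heart libraries and to 17434 to 51902 in blood libraries, with none of the 11 at 0 reads in any library. Ly6g itself was 16.8, 26.9 and 18.01 for MI, 6.76, 13.8 and 4.75 for MI + MSC, 198 and 645 for Blood and 57.0 and 41.2 for Blood + MSC, so the gene for the selected protein was lowest in the heart preparations.

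The 3′ end of the members was read from the reference, since it decides which transcripts the counting could see. The histone stem-loop is a run of 16 bases, and it was found within 150 bases after the stop codon of 55 of the 61 members. The most common form was shared by 35 members of the H1, H2A, H2B and H3 classes, while 8 H4 members shared another form with a different stem. The genes below are shown because the results turn on them, each on its own strand of GRCm39 from 5′ to 3′, with the stem-loop in capitals and 5 flanking bases on either side.

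H1f2: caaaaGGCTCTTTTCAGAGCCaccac
H1f4: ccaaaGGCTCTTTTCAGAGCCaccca
H2bc4: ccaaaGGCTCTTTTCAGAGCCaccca
H2bc14: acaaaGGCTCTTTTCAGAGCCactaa
H2bc3: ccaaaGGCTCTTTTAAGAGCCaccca
H3c10: tcaaaGGCTCTTTTCAGAGCCaccca
H4c17: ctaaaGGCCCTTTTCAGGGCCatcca
H4c2: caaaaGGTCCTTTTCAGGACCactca

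The capitals lie at chr13:23923495-23923510 (+) for H1f2, chr13:23805765-23805780 (-) for H1f4, chr13:23868630-23868645 (+) for H2bc4, chr13:21906676-21906691 (+) for H2bc14 and chr13:21996299-21996314 (+) for H4c17. H1f2, H1f4 and H2bc4, which were lower in MI than in Blood, thus hold the same 16 bases as H2bc14 and H3c10, which were higher. No such run was found in the window of H2ac22, H2bc21, H2bc22, H2bc23, H3c8 and H4c1.

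The annotated transcripts differed in how far they ran past the stem-loop. In 22 members they extended at least 100 bases beyond it, as in H1f2 (840 bases) and H1f4 (1153 bases), and in H2bc4 the last annotated base was 9518 bases downstream, introns included. In 33 members they ended at, before or shortly after the stem-loop, as in H4c17 (3 bases past it). The members also share sequence: in 3 genes no window of 100 exon bases was found only once in the genome, in 21 genes fewer than 50% of windows were, and in 7 genes all were. How reads with several equally good positions were counted is not given in the sources used here, so the level of a member with few unique windows is uncertain, as for H3c10 (8.01% unique) and H4c17 (11.9%). H1f4 and H2bc6 also overlap on the same strand, so their reads cannot be fully told apart.

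Of the 61 members, 49 lie on chromosome 13 in 2 blocks, 21 of them within chr13:21899933-22227846 and 28 within chr13:23715220-23948389. Another 8 lie within chr3:96127181-96177448, 3 on chromosome 11 and 1, H4c16, on chromosome 6. Members of the chromosome 13 block at lower coordinates summed to 55.2, 84.8 and 134 normalized counts per kb of exon in MI, 139, 91.9 and 187 for MI + MSC, 82.0 and 64.3 for Blood and 64.8 and 55.3 for Blood + MSC. The chromosome 3 block summed to 30.8, 44.5 and 61.5 for MI, 56.5, 48.1 and 73.1 for MI + MSC, 24.1 and 28.1 for Blood and 36.8 and 31.5 for Blood + MSC. The other chromosome 13 block, with most members, summed to 57.0, 93.0 and 123.4 for MI, 140.4, 101 and 167 for MI + MSC, 215 and 122.6 for Blood and 116 and 81.8 for Blood + MSC. In the chromosome 3 block every Blood library was below every MI library, whereas in both chromosome 13 blocks the groups overlapped. The log2 ratio of the mean sums of MI and Blood in the block with most members was -0.89.

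In the RefSeq promoter table (GRCm38.p6), 52 members had an entry, and 4 short motifs were searched on both strands in the 250 bases before the start. CCAAT was present in 43 of the 52 (82.7%) against 34.5% of all 27025 promoters, and it was in all 5 H1, all 14 H2A and all 13 H2B promoters but in 3 of 11 of H4. TATAAA was present in 26 of the 52 against 13% of all promoters. The octamer ATTTGCAT, known from H2B promoters, was found in 5 of 13 H2B and 5 of 14 H2A promoters against 1.61% of all promoters, and AAACACA, known from H1 promoters, in 4 of 5 H1 promoters against 6.22%. H2A and H2B genes often share a promoter region, so these matches are not independent.

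All members together made up 0.256% (MI 13) to 0.709% (MI + MSC 18) of a library's reads. At least 1 read was found for 53 members in MI 13, 49 for Blood 21 and 59 to 61 in each of the other libraries. If every library had the depth of MI 13, 53.0 to 55.6 members would be detected in a heart library and 42.1 to 51.2 in a blood library. These ranges did not overlap. Detection at equal depth was not computed over all genes, so the difference cannot be taken as particular to the members. Olfactory and vomeronasal receptor genes, which neutrophils are not known to express, were also higher in heart libraries, at 0.280 to 3.16 normalized counts per kb against 0.0611 to 0.0916 in blood, and the part of such stray reads in the detection of low members was not tested.

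Per kb of exon and over all 10 libraries, H1f2, a linker histone gene, had the highest mean level (832 normalized counts per kb). The H4 genes H4c8 (395), H4c12 (374), H4c3 (361) and H4c17 (328) came next, before H1f4 (317). The order differed between groups: H1f2 averaged 1946 per kb in Blood and 324 in MI, where H4c12 (436), H4c8 (414) and H4c3 (332) were above it. The highest members of the other classes were H2bc8 (194) and H2bc15 (192) for H2B, H2ac15 (187) and H2ac4 (183) for H2A, and H3c1 (164) and H3c3 (159) for H3. At the other end, 8 members did not reach the mean of 10 normalized counts needed for testing: H2ac19, H2ac21, H2ac23, H2bc22, H2bc23, H2bc26, H2bc27 and H3c15.

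The H1 class summed to 63.7, 113 and 130 normalized counts per kb in MI, 160, 139 and 174 for MI + MSC, 460 and 240 for Blood and 244 and 139 for Blood + MSC. Each MI library was below each Blood library. The H3 class went the other way, with 52.8, 76.8 and 134 for MI, 128, 67.3 and 182 for MI + MSC, 27.1 and 39.8 for Blood and 37.0 and 46.6 for Blood + MSC. All 6 heart libraries were above all 4 blood libraries in H3. The H4 class, the highest of the core histones per kb, summed to 96.5, 148 and 200 for MI, 224, 173 and 247 for MI + MSC, 130 and 118 for Blood and 113 and 94.9 for Blood + MSC. H2A summed to 29.5, 57.4 and 87.5 for MI, 88.2, 48.2 and 134 for MI + MSC, 43.8 and 39.5 for Blood and 38.6 and 36.0 for Blood + MSC. H2B, which includes H2bc4, summed to 25.1, 35.0 and 49.96 for MI, 55.9, 37.7 and 72.5 for MI + MSC, 85.3 and 37.9 for Blood and 32.9 and 29.4 for Blood + MSC. For H4, H2A and H2B the MI and Blood libraries overlapped, and all MI + MSC libraries were above both Blood + MSC libraries. In bulk libraries, fewer cells of a type and less RNA per cell cannot be told apart.

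**Figure D1:**
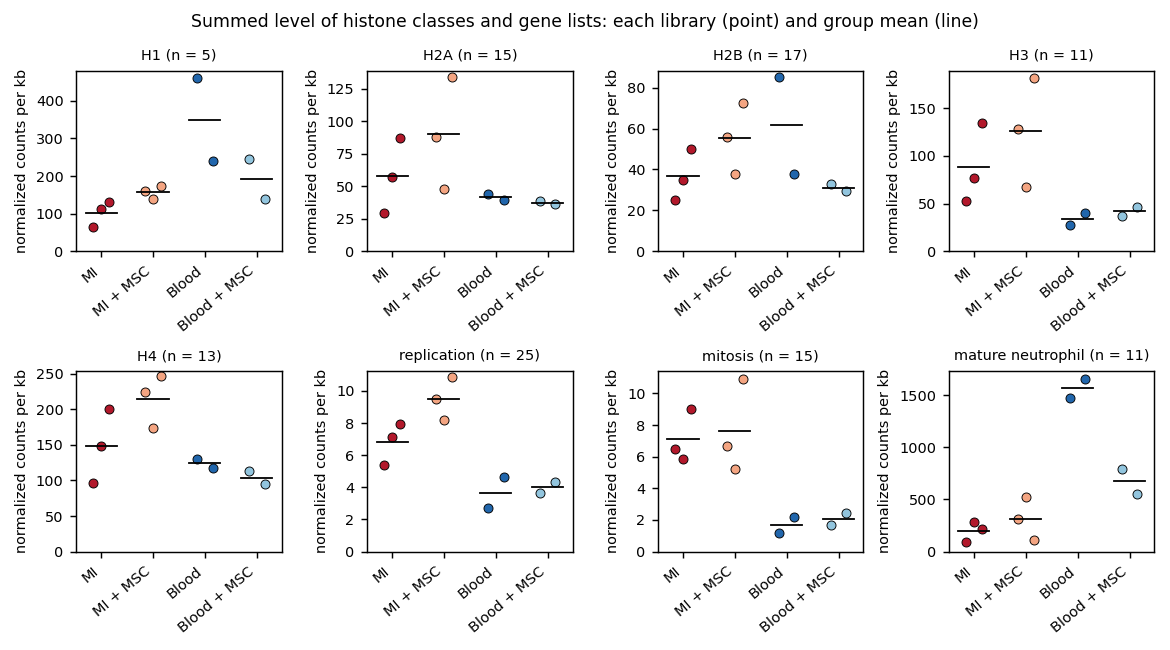
Summed level of the 5 histone classes and of 3 gene lists in normalized counts per kb of exon (vertical axis, from 0), with 1 point per library, a line at the group mean and n the number of genes summed. H1 is highest in Blood, reaching 460 for Blood 21, whereas H3, replication and mitosis genes are higher in all 6 heart libraries than in all 4 blood libraries, and mature neutrophil genes are higher in all blood libraries.

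The sum over all 61 members, 3194, 5108 and 7047 normalized counts in MI and 9771 and 5902 for Blood, therefore depended on 3 genes. H1f2, H1f4 and H2bc4 together made up 71.5% and 50.3% of the members' sum in Blood, 51.5% and 38.4% for Blood + MSC, 17.2% to 23.1% for MI and 16.6% to 29.6% for MI + MSC. The log2 ratio of the mean sums of MI and Blood was -0.62 with these genes and 0.52 without them. With these genes it was -0.21 without Blood 21, and -0.11 with library-size scaling. Between MI + MSC and Blood + MSC, with sums of 7765, 5584 and 9516 against 5750 and 4216, it was 0.61 and 1.16. The choice of these 3 genes was not planned, and they are among the members lower in MI. Leaving them out therefore had to raise the ratio of MI to Blood, and this adds no support.

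The first comparison set MI against Blood and asked which members differed between infarct and blood neutrophils of mice without MSCs. A gene was called where limma gave a Benjamini-Hochberg adjusted p under 0.05 over all 11549 tested genes and the log2 fold change was 0.5 or larger in either direction, where fold changes are given on the log2(normalized count + 2) scale. Of the 53 members tested, 13 were higher in MI and 5 lower, against 21.2% and 13.5% of all tested genes called in these directions. The numbers of members called are thus close to the background share. Over all 61 members the median log2 fold change was 0.80, against 0.15 over all tested genes, and 49 members were above 0. With library-size scaling these medians were 1.29 and 0.63, a shift shared by all genes, and 46 members were then above the median of all genes, against 49 in the main scaling.

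The 5 members called lower in MI were H1f2, H2bc4, H1f4, H4c17 and H2bc6. H1f2 was 269, 624 and 623 normalized counts in MI and 4423 and 1648 for Blood. Every MI library was below both Blood libraries, with a log2 fold change of -2.51 ± 0.53 (SE, limma adjusted p = 0.00521). H1f4 was 269, 399 and 402 for MI and 1130 and 1007 for Blood, again without overlap, and its log2 fold change was -1.60 ± 0.35 (limma adjusted p = 0.00602). H2bc4, an H2B gene, was 92.4, 160 and 184 for MI and 1434 and 314 for Blood, and the log2 fold change of -2.25 ± 0.53 (limma adjusted p = 0.00862) rested in large part on Blood 21. H4c17, an H4 gene, was 42.0, 71.1 and 118 for MI and 297 and 151 for Blood (limma log2 fold change -1.55 ± 0.43, adjusted p = 0.0178). H2bc6 was 101, 105 and 143 for MI and 226 and 189 for Blood, the smallest change of the 5 (limma log2 fold change -0.84 ± 0.28, adjusted p = 0.0371).

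Blood 21 held the highest level of all 10 libraries for 8 members, among them H1f2, H2bc4, H4c17, H4c9 and H2ac6. How often Blood 21 was highest over all tested genes was not counted. The list of 6 platelet genes also stood apart in that library, at 27371 normalized counts against 1149 for Blood 22 and 471 to 1757 in the other libraries, with none of the 6 at 0 reads in any library, and its part in these levels was not tested. Without Blood 21, H1f2 (log2 fold change -1.80) and H1f4 (-1.52) still passed, whereas H2bc4 (-1.16), H4c17 (-1.07) and H2bc6 (-0.71) did not.

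The 13 members called higher in MI came from the H2B, H3 and H4 classes, and none from H1 or H2A. In 20 members all MI libraries were above both Blood libraries, against 31.6% of all tested genes, and in 8 all were below, against 23.6%. H2bc14, an H2B gene, was 42.0, 37.5 and 63.8 for MI and 7.07 and 13.6 for Blood (limma log2 fold change 2.03 ± 0.45, adjusted p = 0.00669), without overlap. H4c1, an H4 gene, was 75.6, 82.7 and 117 for MI and 49.5 and 38.3 for Blood (limma log2 fold change 1.02 ± 0.29, adjusted p = 0.0213). H4c12, the second of the H4 genes in mean level per kb, was 101, 126 and 181 for MI and 35.3 and 61.7 for Blood (limma log2 fold change 1.46 ± 0.41, adjusted p = 0.0184). These genes were above both Blood libraries in each MI library.

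H3c13, an H3 gene of the chromosome 3 block, was 42.0, 45.2 and 65.4 for MI and 14.1 and 22.1 for Blood (limma log2 fold change 1.40 ± 0.38, adjusted p = 0.0159). H2bc13 was 25.2, 33.6 and 57.1 for MI and 14.1 and 14.3 for Blood (limma log2 fold change 1.25 ± 0.44, adjusted p = 0.0476). H2bc11 (1.43 ± 0.48) and H2bc3 (1.30 ± 0.45) were each at 2 reads in Blood 21, and H4c6 (1.81 ± 0.55) likewise.

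The largest fold changes were carried by counts of 0 or 1 for Blood 21. H3c10 was 67.2, 59.6 and 98.8 for MI and 0 and 29.2 for Blood, H2bc9 was 25.2, 45.2 and 69.5 against 0 and 16.2, and H4c11 was 25.2, 49.98 and 75.7 against 0 and 24.7. Their log2 fold changes of 3.26, 2.90 and 2.71 were 1.27, 1.31 and 0.84 without Blood 21. H4c2, at 67.2, 113 and 178 for MI and 7.07 and 65.6 for Blood, and H3c3, at 33.6, 94.2 and 195 and 7.07 and 37.7, had 1 read each in Blood 21, and their log2 fold changes of 2.19 and 2.21 were 0.74 and 1.14 without it. Depth limits these 5 genes, since 3 reads in Blood 21 are worth 21.2 normalized counts. Also under that level in Blood 21 were H2bc14, at the worth of 1 read, H3c13, H2bc13, H2bc11, H2bc3 and H4c6. The log2 fold change of H2bc14 was 1.63 without Blood 21.

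The number of members called depended on single libraries. Without Blood 21, 2 of the 53 tested members were higher (H2bc14 and H4c1) and 2 lower (H1f2 and H1f4), against 15.7% and 14% of all tested genes. Without MI 13, 22 were higher and 4 lower, against 19% and 11.9%. The members' share was thus below that of all genes without Blood 21, and above it among higher calls without MI 13. Without MI 19 the numbers were 6 and 5 (all genes 16.8% and 11.4%), without MI 20 3 and 5 (18.4% and 12.1%), and without MI + MSC 15 8 and 4 (18.2% and 10.7%). Without both MI 13 and Blood 21, a setting chosen after the data were seen, 9 were higher and 3 lower, against 19.9% and 18.3% of all tested genes. H1f2, H1f4 and H2bc14 passed in each of the 10 fits that left out 1 library.

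**Figure D2:**
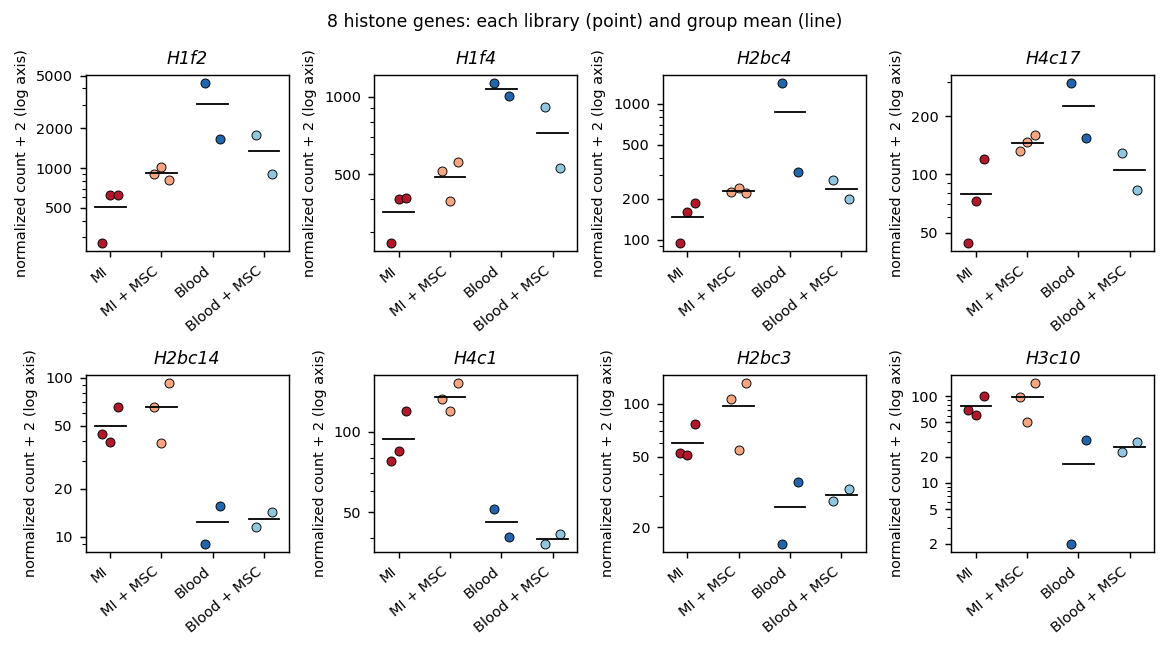
Normalized count + 2 on a log axis for 8 histone genes, with 1 point per library and a line at the group mean. In the upper row H1f2, H1f4, H2bc4 and H4c17 are lower in all 3 MI libraries than in both Blood libraries, and in the lower row H2bc14, H4c1, H2bc3 and H3c10 are higher in all 3 MI libraries, with H3c10 at 0 reads in Blood 21.

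The second comparison, MI + MSC against Blood + MSC, put the same question for mice that received MSCs. Its fold changes rested on 3 heart and 2 blood libraries of at least 665946 reads each, while its standard errors and calls used the spread over all 10 libraries. Of the 53 members tested, 7 were higher in MI + MSC and 0 lower by limma, against 8.23% and 5.85% of all tested genes, and 0 members were lower at an unadjusted p under 0.05. By edgeR, DESeq2 and limma-voom on the recovered reads, 37 members were higher and 0 lower, where edgeR called 16.4% and 15.6% of all tested genes higher and lower, DESeq2 17.8% and 11.2%, and limma-voom 20.8% and 17.9%. The median log2 fold change over all 61 members was 1.16 against 0.09 over all tested genes, and 54 members were above 0.

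In 43 of the 61 members, all 3 MI + MSC libraries were above both Blood + MSC libraries, against 33.8% of all tested genes. H4c1 was 130, 117 and 150 for MI + MSC and 36.2 and 39.4 for Blood + MSC (limma log2 fold change 1.75 ± 0.29, adjusted p = 0.00341). H2bc14 was 63.5, 36.7 and 90.8 against 9.46 and 12.3 (limma log2 fold change 2.27 ± 0.45, adjusted p = 0.00794). H4c4, an H4 gene whose windows are all unique, was 364, 273 and 407 against 117 and 119 (limma log2 fold change 1.53 ± 0.38, adjusted p = 0.0229).

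The other members called were H2ac15 (1.74 ± 0.49), H2bc3 (1.59 ± 0.45), H3c1 (1.42 ± 0.41) and H4c8 (1.24 ± 0.37), so that each core class was represented and H1 was not. H2bc14, H2bc3 and H4c1 were called higher in both heart-blood comparisons, which is 23.1% of the 13 members of the first and 42.9% of the 7 of the second. Without Blood + MSC 23, 0 members were called higher, against 1.97% of all tested genes. Without Blood + MSC 24, MI + MSC 15 or MI + MSC 18, 2 were called, against 3.3%, 5.57% and 4.1%, while without MI + MSC 17 the number was 15, against 5.97%. Leaving out a library of the other groups also moved it through the shared spread, to 21 without Blood 21 (12.9% of all tested genes) or Blood 22 (13%), 18 without MI 13 (12.8%) and 3 without MI 19 (6.24%), and to 36 without both MI 13 and Blood 21 (22.3%).

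The members that were lower in MI than in Blood did not pass in this comparison. H1f2 was 902, 1019 and 805 for MI + MSC and 1781 and 893 for Blood + MSC (limma log2 fold change -0.48 ± 0.53, adjusted p = 0.570), and H1f4 was 514, 393 and 557 against 909 and 529 (-0.52 ± 0.35, limma adjusted p = 0.331). H2bc4 was 222, 239 and 220 against 272 and 196 (-0.03 ± 0.53, limma adjusted p = 0.979). H4c17 was 130, 145 and 157 against 126 and 80.9, and here each heart library was above each blood library (0.50 ± 0.43, limma adjusted p = 0.459). The test of the difference between the 2 heart-blood comparisons is the interaction given further on.

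The linker histones split within their class. H1f1 was 25.2, 84.6 and 160 for MI, 143, 80.4 and 178 for MI + MSC, 7.07 and 49.4 for Blood and 24.7 and 33.8 for Blood + MSC. H1f5 was 33.6, 69.2 and 128 for MI, 110, 71.2 and 176 for MI + MSC, 14.1 and 44.2 for Blood and 41.2 and 40.9 for Blood + MSC. These 2 genes were higher in each MI + MSC library than in each Blood + MSC library, at log2 fold changes of 2.06 ± 0.78 and 1.40 ± 0.58, which did not pass by limma (adjusted p = 0.0968 and 0.128) and passed by edgeR (adjusted p = 0.00748 and 0.0204). Their annotated transcripts end at or before the end of the stem-loop, whereas those of H1f2, H1f4 and H1f3 run past it. H1f3, extended by 4884 bases, was not lower in heart. Its log2 fold changes were 0.43 ± 0.42 for MI against Blood and 0.19 ± 0.42 for MI + MSC against Blood + MSC, not called in either.

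**Figure D3:**
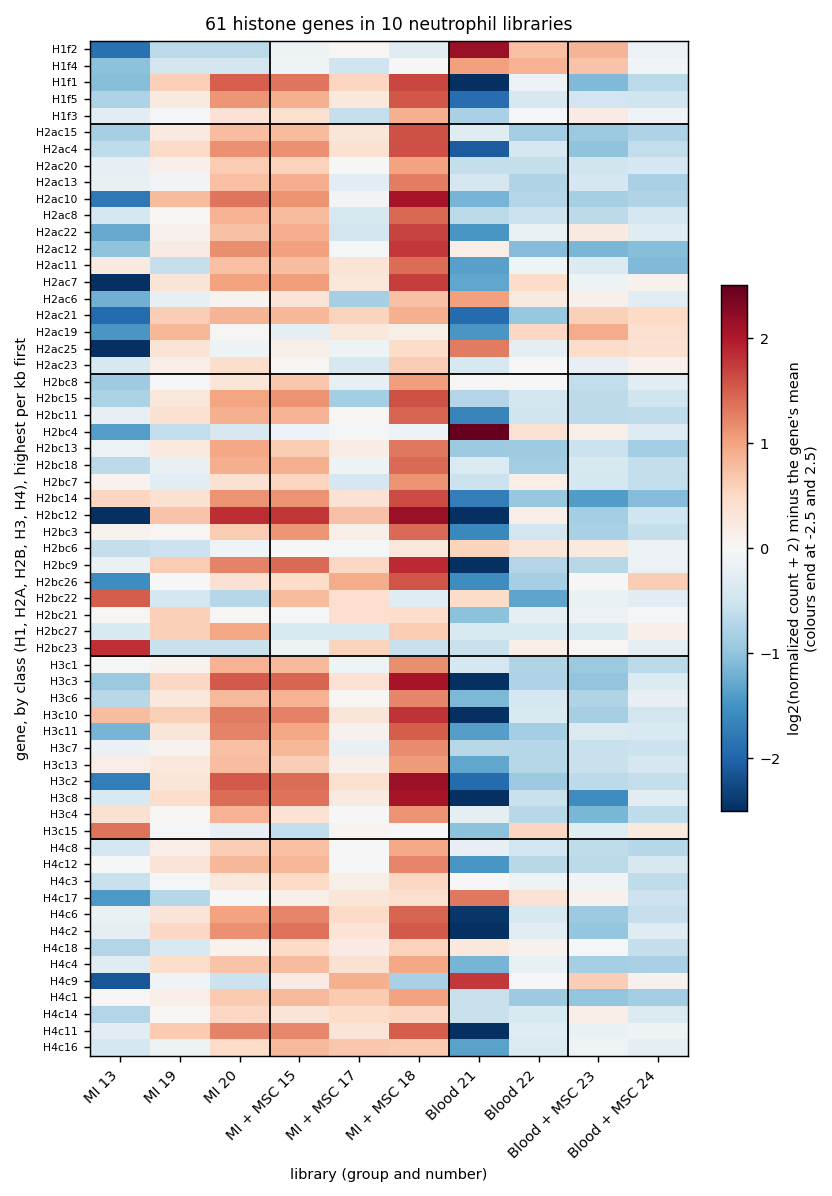
Heat map of log2(normalized count + 2) minus the mean of each gene over the 10 libraries (colour), with the 61 members as rows by class and the libraries as columns by group. MI + MSC 18 is the highest of all libraries for 46 members and Blood 21 for 8, without a count over all genes. H1f2, H2bc4 and H4c9 are the rows with the strongest red in Blood 21.

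Members were also grouped by their annotated 3′ end, with the limit of 100 bases chosen after the values were seen. The 22 members that extended past the stem-loop had a median log2 fold change of 0.52 between MI and Blood, with 9 of 22 below 0, and the 33 short members a median of 1.07, with 3 of 33 below 0. Without Blood 21 these medians were 0.19 and 0.85. Between MI + MSC and Blood + MSC the medians were 0.65 and 1.40. Of the 5 members called lower in MI, 4 were extended and 1, H4c17, was short. H2ac6, extended by 2010 bases and not called, was 42.0, 86.5 and 107 for MI and 205 and 117 for Blood, and H4c9, extended by 330 bases, was 16.8, 75.0 and 55.6 against 283 and 81.9 (limma log2 fold change -1.82 ± 0.68, adjusted p = 0.0560). Members in which no stem-loop was found had medians of 0.77 and 0.63. These are descriptions of the chosen groups, and whether the transcripts in these cells were polyadenylated was not measured.

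**Figure D4:**
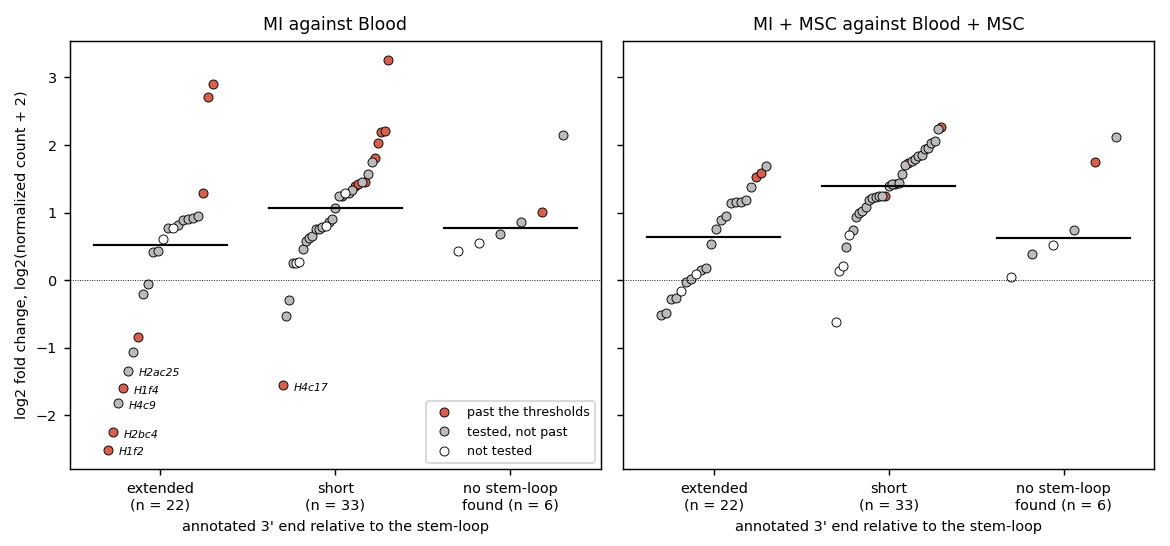
Log2 fold change of each of the 61 members (points) in the 2 heart-blood comparisons, grouped by whether the annotated transcript runs at least 100 bases past the stem-loop (extended), less (short) or has no stem-loop found, with a line at the median and filled red points past the limma thresholds. The lowest points, H1f2 at -2.51 and H2bc4 at -2.25, are extended members, and in the comparison with MSCs they lie at -0.48 and -0.03.

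Within the heart, MI + MSC against MI asked whether MSCs changed the members in infarct neutrophils. By limma 0 members were called in either direction, as were 0% of all tested genes, and by edgeR, DESeq2 and limma-voom 0 members were called too. At an unadjusted p under 0.05, 3 members were higher (H4c17, H4c18 and H4c16) and 0 lower, where 8.01% of all tested genes passed in either direction. In 8 of the 61 members all MI + MSC libraries were above all MI libraries, of which 7 were tested, against 7.05% of all tested genes, and in 0 members all were below (9.6%).

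The direction was nonetheless shared, with 58 of 61 members above 0 and a median log2 fold change of 0.54 against -0.01 over all tested genes. MI 13 was the lowest heart library for 43 members and MI + MSC 18 the highest for 51. How often this held over all tested genes was not counted. Without MI 13, the library of lowest depth, 54 members were above 0 and the median was 0.24, and without MI + MSC 18 the values were 50 and 0.37. Without MI 20 the median was 0.82, and without MI + MSC 17 0.85.

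H4c17 was 42.0, 71.1 and 118 for MI and 130, 145 and 157 for MI + MSC (limma log2 fold change 0.997 ± 0.383, adjusted p = 0.604). H4c18, its neighbour in the H4 class, was 58.8, 75.9 and 107 against 142, 115 and 150 (0.77 ± 0.28, limma adjusted p = 0.587). Both are genes with few unique windows, 11.9% and 10.9%, and neither overlapped between the groups. H1f2, at 269, 624 and 623 against 902, 1019 and 805, was also without overlap (0.94 ± 0.47, limma adjusted p = 0.639).

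The 893 olfactory and vomeronasal receptor genes, taken as a level of stray reads, summed to 3.16, 0.654 and 0.436 normalized counts per kb in MI, 0.280, 1.27 and 0.513 for MI + MSC and 0.0611 to 0.0916 in blood libraries. All members together were at 48.9 normalized counts per kb in MI 13, the library with most stray reads, and 4 members (H2ac23, H2bc23, H2bc27 and H3c15) had mean levels at or under 3.16 per kb.

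**Figure D5:**
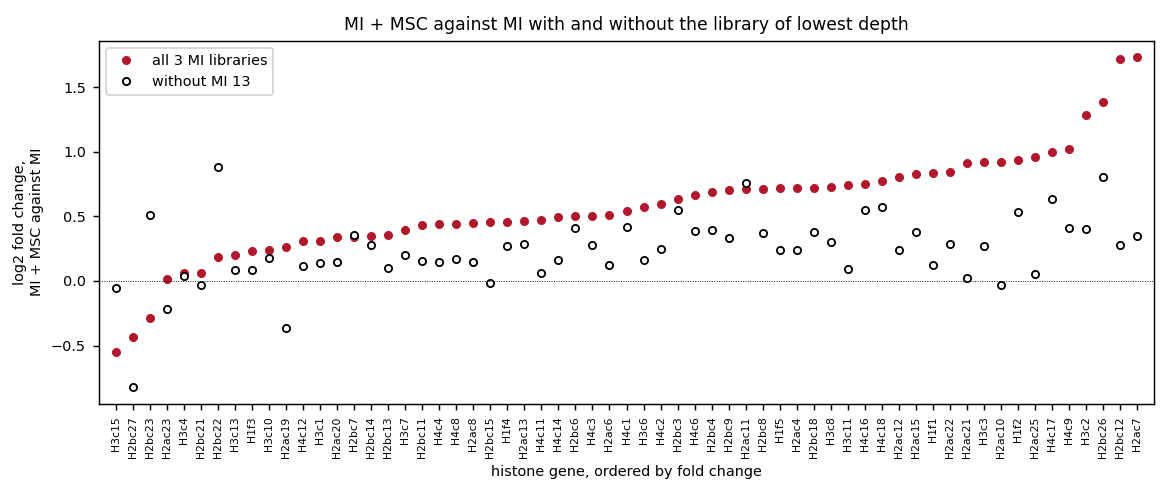
Log2 fold change of MI + MSC against MI for the 61 members in order of size, with all 3 MI libraries (red) and without MI 13 (open circles). With all libraries 58 members are above 0, and without MI 13 the median falls from 0.54 to 0.24.

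In blood, Blood + MSC against Blood gave 0 members called by limma, against 0% of all tested genes, with 1 member higher and 2 lower at an unadjusted p under 0.05, which 7.34% of all tested genes passed in either direction. The count was also 0 by edgeR and limma-voom, and DESeq2 called 1 lower, H2bc4 (log2 fold change -1.98, DESeq2 adjusted p = 0.0423), as were 1.52% of all genes in that test. H2bc4 was 1434 and 314 for Blood and 272 and 196 for Blood + MSC, and the limma log2 fold change of -1.53 ± 0.58 (adjusted p = 0.672) was -0.44 without Blood 21. The median over all members was 0.19, against 0.11 over all tested genes, and it was -0.06 without Blood 21. Without Blood 22, which leaves Blood 21 as the lone Blood library and assumes that it varies like the other groups, 4 members were higher (H2bc9, H3c10, H4c2 and H4c11, at 0 or 1 read in Blood 21) and H2bc4 was lower, against 9.64% and 3.4% of all tested genes.

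Whether the MSC difference itself differed between heart and blood was tested as an interaction. By limma, edgeR, DESeq2 and limma-voom 0 members passed, the lowest limma adjusted p was 0.630, and 5 of the 53 tested members had an unadjusted p under 0.05, against 7.26% of all tested genes. These were H1f2 (2.03 ± 0.75 on the log2 scale), H2bc4 (2.22 ± 0.75), H2bc6 (0.86 ± 0.39), H4c17 (2.05 ± 0.61) and H4c18 (1.27 ± 0.45), where a positive value means a more positive MSC difference in heart. In H2bc4, H2bc6, H4c17 and H4c18 every MI + MSC library was above every MI library and every Blood + MSC library below every Blood library. This order describes members picked by these same values and adds no support to the test. Its share over all tested genes was not counted. Without Blood 22, 3 members passed in the direction of heart (H1f2, H2bc4 and H4c17) and 2 in the other (H3c10 and H4c11), against 2.16% and 7.33% of all tested genes.

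Genes that act on histone messenger RNA were taken from lists. Of 7 genes for histone gene transcription, 6 were tested, and 2 were higher in MI than in Blood, where 21.2% of all tested genes were. These were E2f1, a factor of S phase entry, and Ccne2, a cyclin E gene. E2f1 was 33.6, 19.2 and 22.1 for MI and 7.07 and 3.90 for Blood (limma log2 fold change 1.85 ± 0.48, adjusted p = 0.0134), and Ccne2 42.0, 6.73 and 18.5 against 0 and 5.85 (2.33 ± 0.79, limma adjusted p = 0.0413). Depth limits both genes, since 1 read was worth 7.07 normalized counts in Blood 21 and 8.40 in MI 13. Npat, the coactivator of histone gene transcription, was 54.0 to 58.8 for MI, 40.7 to 75.8 for MI + MSC, 49.5 and 30.5 for Blood and 55.4 and 44.3 for Blood + MSC, and it was not called.

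Of 11 genes for 3′ end processing, 1 was higher and 1 lower in MI than in Blood, against 21.2% and 13.5% of all tested genes. Both encode parts of the U7 particle that cuts histone transcripts, Lsm11 at 25.2, 20.2 and 24.2 for MI and 7.07 and 7.80 for Blood (limma log2 fold change 1.41 ± 0.40, adjusted p = 0.0194) and Lsm10 at 25.2, 44.2 and 29.9 against 77.7 and 59.1 (-1.03 ± 0.34, limma adjusted p = 0.0382). The value of Lsm11 in Blood 21 was the worth of 1 read. Slbp, which encodes the stem-loop binding protein, was 58.8, 69.2 and 97.8 for MI, 111, 124 and 96.9 for MI + MSC, 56.5 and 118 for Blood and 138 and 104 for Blood + MSC, so that heart and blood overlapped (MI against Blood, log2 fold change -0.15 ± 0.36, limma adjusted p = 0.774). Of 5 genes for histone messenger RNA decay, 1 was higher in MI, against 21.2% of all tested genes. This was Eri1, an exonuclease acting at the stem-loop, at 84.0, 112 and 113 against 42.4 and 57.2 (1.02 ± 0.28, limma adjusted p = 0.0175). None of these genes was called between MI + MSC and Blood + MSC or between groups with and without MSCs.

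Variant histones, whose genes are as a rule not tied to replication, were listed for comparison, and 9 of the 11 in the table were tested. H1f0, a linker histone known from non-dividing cells, was 151, 207 and 201 for MI, 187, 126 and 256 for MI + MSC, 28.3 and 30.5 for Blood and 48.6 and 60.7 for Blood + MSC. It was called higher in both heart-blood comparisons (log2 fold changes 2.57 ± 0.33 and 1.71 ± 0.33, limma adjusted p = 0.000318 and 0.00668), whereas H1f2 and H1f4 were called lower in the first. H2ax, which has transcripts of both the stem-loop and the polyadenylated kind, was also higher in both (1.28 ± 0.38 and 1.41 ± 0.38, limma adjusted p = 0.0237 and 0.0317). H3f3a, a gene for the replication-independent H3.3, was 151, 356 and 368 for MI and 678 and 747 for Blood and was lower in MI (-1.39 ± 0.39, limma adjusted p = 0.0184). Of the 9 tested, 2 were thus higher and 1 lower in MI, against 21.2% and 13.5% of all tested genes. With MSCs 2 were higher and 0 lower in heart, against 8.23% and 5.85%.

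The genes of DNA replication and mitosis that passed were all higher in heart. Mki67, a marker of cycling cells, was 193, 235 and 402 for MI, 279, 188 and 416 for MI + MSC, 35.3 and 35.1 for Blood and 29.7 and 47.3 for Blood + MSC, and it was higher in heart in both comparisons (log2 fold change 2.83 ± 0.40 in each, limma adjusted p = 0.000622 and 0.00148). Pcna, the sliding clamp of replication, was 118, 295 and 308 for MI, 494, 457 and 410 for MI + MSC, 98.9 and 129 for Blood and 136 and 120 for Blood + MSC, and was called between MI + MSC and Blood + MSC (1.81 ± 0.39, limma adjusted p = 0.0121). Of 25 replication genes 21 were tested, and of 15 mitosis genes 12. In MI against Blood, 6 and 5 of these were higher and 0 lower, where 21.2% of all tested genes were higher. With MSCs 4 and 3 were higher and 0 lower, where 8.23% of all tested genes were higher.

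Other cell types also differed between heart and blood preparations. The 7 cardiomyocyte genes summed to 3102 to 24071 normalized counts in heart libraries and to 13.6 to 63.6 in blood, where 0 to 6 of the 7 were at 0 reads. The 7 endothelial genes summed to 1931 to 2105 for MI and 440.03 to 849 for MI + MSC. In blood they summed to 615 for Blood 21, with 3 of the 7 at 0 reads, and to 38.4 to 64.3 otherwise. The 10 monocyte and macrophage genes summed to 3000 to 10435 in heart and 5088 to 6882 in blood. The 7 erythroid genes summed to 52.0 to 311 in heart and 488 to 9559 in blood, and the 5 mural (vessel wall) genes to 233 to 975 and 64.9 to 120. The 11 neutrophil precursor genes summed to 205 to 1109 in heart, 827 and 6544 for Blood and 1667 and 730 for Blood + MSC. Of these 11, 4 were at 0 reads in MI 13 and 4 in Blood 21. The fibroblast, T cell and B cell sums overlapped between heart and blood. The part of these cells in the histone levels was not tested.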

How the data were processed

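Per the labels and the study's methods, the authors trimmed reads with Trimmomatic, removed duplicates with Picard, mapped to GRCm39 with STAR, counted per gene with featureCounts and left out mitochondrial reads. The deposited signal values are these read counts after division by size factors from DESeq2, 1 per library. A second deposited table, named as raw counts, held the same 281850 values. Dividing each value by the worth of 1 read recovered whole reads for 100% of values (within 0.01 reads), and DESeq2, edgeR and limma-voom were run on those as alternatives. No per-sample column was left unmapped.

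limma (3.58.1, intensity trend) was fitted to log2(normalized count + 2) with 1 mean per group over all 10 libraries, for genes averaging 10 normalized counts or more. Benjamini-Hochberg adjustment ran over all 11549 tested genes, 53 of them members. Fold changes on this scale understate the change of low genes. Depth was 148594 to 8602711 reads per library, and floors of 3 reads cover counting error only. Named genes were the 20 members highest per kb, the 2 highest of each class, all members called, called genes of the histone lists, and Slbp, Npat, Mki67, Pcna and Ly6g. H1f1, H1f5, H2ac6 and H4c16 were added after their values were seen, as were members named for small counts. The members and lists were chosen with earlier results of these data known.

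Annotation was GENCODE for GRCm39, which held 27906 of 28185 identifiers, and windows of 100 bases were counted on the whole genome. A stem-loop was a run of 16 bases with GG and CC at its ends, TT in the loop and at most 1 mismatch in 4 inner pairs. Simulated data were given to limma, edgeR, DESeq2 and limma-voom for the 4 comparisons of groups, with all 10 libraries. The interaction, other pseudocounts, scalings and filters, the 2 groups alone and left-out libraries were not simulated. R 4.3.3, edgeR 4.0.16, DESeq2 1.42.0, Python 3.11.15, numpy 2.4.6, pandas 2.3.3, scipy 1.17.1 and matplotlib 3.10.9 were used. Alternatives were other pseudocounts, filters, scalings and tools, the 2 groups alone, and each library left out.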

Additional observations from a re-analysis of the deposited data

How the results depend on the processing

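No paired analysis was possible because the groups share no library numbers and the labels tie no heart library to a blood library. Per the study's methods, blood was drawn from the animals just before their hearts were taken. Heart and blood libraries may therefore come from the same mice, whereas the heart-blood and interaction tests treat them as independent. Groups of 2 or 3 libraries, MI 13 and Blood 21 at low depth, and shared sequence limit the values.

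Between MI and Blood, the 13 members called higher became 27 with library-size scaling (32.7% of all genes), 8 with limma-voom (16.6%) and 1 with only the 2 groups compared (9.45%), and 2 to 22 with 1 library left out. The 5 lower became 3 with library-size scaling (7.04%), 2 with only the 2 groups compared (5.27%), 3 without both shallow libraries and 2 to 6 with 1 library left out. Between MI + MSC and Blood + MSC, the 7 higher became 37 with edgeR, DESeq2 and limma-voom, 34 with only the 2 groups compared (18.8%), 36 without both shallow libraries and 0 to 21 with 1 left out. In blood, DESeq2 called 1 member lower with MSCs, and with 1 library left out 0 to 4 were higher and 0 to 1 lower. The interaction gave 0 to 3 members higher and 0 to 2 lower in heart with 1 library left out. The log2 ratio of summed levels of MI against Blood, -0.62, was -0.0584 without H1f2, a gene itself lower in MI. It was 0.0289 when each member's count was divided by its own exon length before summing. That of MI + MSC against Blood + MSC, 0.61, became 1.05 in the latter way. The causes were not tested. Of 525 values of the 25 gene calls under alternatives, 398 still passed, 127 did not and 0 reversed.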

Other observations

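Histone chaperones, which carry histones to and from DNA, were the remaining list tied to histone supply. Of the 13 genes, all tested, 2 were higher in MI than in Blood, against 21.2% of all tested genes. These were Chaf1a, a subunit of the replication-coupled assembly factor, and Asf1a, which hands histones H3 and H4 to it. Chaf1a was 42.0, 22.1 and 34.0 normalized counts in MI and 0 and 10.4 for Blood (limma log2 fold change 2.76 ± 0.69, adjusted p = 0.0117), and Asf1a was 33.6, 19.2 and 13.9 against 0 and 9.75 (2.24 ± 0.70, limma adjusted p = 0.0304). Both were at 0 reads in Blood 21, and 0 of the 13 genes were called between MI + MSC and Blood + MSC, where Chaf1a was 31.8, 16.1 and 37.96 against 13.1 and 15.5. The list was called in 0 genes by limma in either comparison with MSCs.

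Non-coding RNAs without a poly(A) tail gave another view of the libraries. The 4 such genes in the table summed to 8589, 2590 and 1846 normalized counts in MI, 2560, 5299 and 2173 for MI + MSC, 11997 and 2607 for Blood and 1245 and 844 for Blood + MSC. The 2 libraries of lowest depth, MI 13 and Blood 21, had the highest sums of all 10. Of the 4 genes, 1 reached the level needed for testing, and 3 were at 0 reads in Blood 21 and 1 in MI 13. The sum in Blood 21 thus came from a single gene, and the part of depth in these sums was not tested.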
